A study of Mus musculus with 16 samples.

Results

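Adi1, Greb1, E2f6, Kcnf1, Atp6v1c2, Grhl1, Kidins220 and Trappc12 are 8 protein-coding genes of 1 stretch of mouse chromosome 12, out of 20436 genes listed in the deposited gene tables. They were chosen from measured values, as neighbours on 1 chromosome whose ribosome footprints set WT apart from the single knockouts. The exact cut was reconstructed, and the following gives exactly these 8 and is called the rule below. It takes Adi1 and those of the 100 tested genes nearest to it that differed from WT in the same direction in both single knockouts, each at an unadjusted p under 0.05. The footprint values of the single knockouts against WT are therefore the basis of the choice and are given as a description. Adjusted p-values printed for the 8 in these contrasts are part of that description and no test of them. Ribosome profiling (sequencing of the mRNA fragments that ribosomes shield from RNase, here called footprints) and RNA-seq of cytoplasmic RNA were made from cerebral cortex of FVB.129P2-/Pde6b+ Tyr c-ch //AntJ mice aged 28 to 35 days. The 4 genotypes were wild type (WT), Fmr1 single KO, Cpeb1 single KO and Fmr1/Cpeb1 double KO, with 2 libraries each per assay and 16 in all. Each cytoplasmic lysate of cortex was split between the assays. The labels do not say whether the 2 libraries of a group came from separate animals, so p-values measure the spread between these libraries, which may be technical. Fmr1 encodes FMRP, an RNA-binding protein that represses translation in neurons and is lost in fragile X syndrome, and Cpeb1 encodes a protein that binds cytoplasmic polyadenylation elements in mRNA and regulates poly(A) length and translation.

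A footprint count follows both how much mRNA a gene has and how many ribosomes each mRNA carries. Comparison with the RNA count of the same lysate separates these, and their ratio is called translational efficiency. Fewer cells of a type and less RNA or fewer ribosomes per cell cannot be told apart in whole cortex. Libraries held 16239479 to 24973462 counts for footprints and 5423919 to 10246479 for RNA. Fmr1 footprints were 95.7 and 97.3 CPM (counts scaled to a common library total by the trimmed mean of M-values) in WT, 8.69 and 5.87 in the Fmr1 KO, and 5.33 and 5.52 in the double KO. Cpeb1 footprints were 35.5 and 33.4 CPM in WT, 7.3 and 7.43 in the Cpeb1 KO, and 7.73 and 7.69 in the double KO. Both targeted genes thus followed their labels, and neither lies on chromosome 12: Fmr1 is on chromosome X and Cpeb1 on chromosome 7. Markers of cortical excitatory neurons summed to between 3010 and 3800 CPM in every footprint library. Oligodendrocyte markers summed to 3350 to 3520 CPM in WT, 2850 to 2880 in the Fmr1 KO and 2770 to 3100 in the double KO. In the Cpeb1 KO they were at 3210 to 3800. Astrocyte markers summed to 530 to 616 CPM in WT, 521 to 592 over the single knockouts and 486 to 502 in the double KO. Microglia markers were at 26.2 to 36.6, 31.8 to 41.5 and 17.6 to 24.8 CPM in the same order. The part of these cells in the values below was not tested. The 5 choroid plexus markers summed to 27.5 to 28.8 CPM in WT footprints, 24.5 to 135 in the Fmr1 KO, 59.5 to 154 in the Cpeb1 KO and 49.8 to 68.4 in the double KO, none of them at 0 throughout, and the part of this tissue in the values below was not tested.

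In the order of the chromosome (GRCm38.p6 coordinates, RefSeq), Greb1 spans chr12:16670615-16801394 on the minus strand and E2f6 chr12:16810909-16826752 on the plus strand. Kcnf1 spans chr12:17172100-17176888 and Atp6v1c2 chr12:17284721-17325386, both on the minus strand. Grhl1 spans chr12:24572232-24617391 and Kidins220 chr12:24974903-25063152, both on the plus strand. Adi1 spans chr12:28675207-28682175, and Trappc12 lies at chr12:28690620-28750485 on the minus strand. The whole stretch is 12.1 Mb long and holds 35 genes tested in footprints and 32 tested in RNA, so the 8 are not contiguous. All 8 passed the filter on low counts in both assays. In footprints Greb1 passed it through WT, with 14 and 18 counts, while none of its single knockout libraries reached the minimum count of 10. Being tested at all thus favoured a fall of Greb1 from WT. They fall into close pairs: 9.5 kb separate Greb1 from E2f6, 107.8 kb Kcnf1 from Atp6v1c2, 357.5 kb Grhl1 from Kidins220 and 8.4 kb Adi1 from Trappc12. Between Atp6v1c2 and Grhl1 lie 7246.8 kb with 12 other tested genes, and between Kidins220 and Adi1 3612.1 kb with 7. The annotated ends of Atp6v1c2 and Pdia6 overlap, and whether any counted reads fall there was not tested.

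The 8 proteins have unrelated roles. ADI1 is acireductone dioxygenase, an enzyme of the methionine salvage pathway, which rebuilds methionine from the methylthioadenosine left over by polyamine synthesis. TRAPPC12 is a subunit of a TRAPP complex, which tethers transport vesicles between the endoplasmic reticulum and the Golgi. ATP6V1C2 is an isoform of the C subunit of the vacuolar proton pump that acidifies intracellular compartments. KIDINS220 is a membrane scaffold for neurotrophin and ephrin receptors in neurons. KCNF1 is an electrically silent potassium channel subunit that modifies Kv2 channels. E2F6 is a repressive E2F transcription factor that works with Polycomb proteins, GRHL1 is a transcription factor of the grainyhead family known mainly from epidermis, and GREB1 was first known as an estrogen-responsive gene and a cofactor of the estrogen receptor.

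RefSeq gives a window around the start (250 bases before to 50 after) for 7 of the 8 genes, all but Adi1. The parts that lie upstream of the annotated gene are shown for 5 of them, to let the starts of genes with footprints on the same side of WT be compared. E2f6, Kcnf1 and Grhl1 were higher in the single knockouts and Trappc12 was lower. Kidins220 was also higher, and its upstream part overlaps a long noncoding RNA gene, Gm36236. Sequences run 5′ to 3′ on the gene's strand, with CCAAT boxes and GC boxes, on either strand, in capitals.
E2f6 (chr12:16810715-16810908, plus strand): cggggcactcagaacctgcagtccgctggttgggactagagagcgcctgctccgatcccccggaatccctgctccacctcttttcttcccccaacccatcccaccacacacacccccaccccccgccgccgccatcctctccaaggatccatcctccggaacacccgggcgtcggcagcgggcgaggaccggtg
Kcnf1 (chr12:17176889-17177138, minus strand): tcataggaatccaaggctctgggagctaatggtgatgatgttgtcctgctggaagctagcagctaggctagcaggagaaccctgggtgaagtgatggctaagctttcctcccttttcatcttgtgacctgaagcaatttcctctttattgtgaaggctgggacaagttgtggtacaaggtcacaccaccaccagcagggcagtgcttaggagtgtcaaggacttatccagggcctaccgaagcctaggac
Grhl1 (chr12:24572037-24572231, plus strand): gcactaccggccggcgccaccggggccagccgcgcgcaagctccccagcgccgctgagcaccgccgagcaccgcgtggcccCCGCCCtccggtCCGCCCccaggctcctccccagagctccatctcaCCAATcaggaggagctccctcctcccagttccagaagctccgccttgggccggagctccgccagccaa
Kidins220 (chr12:24974682-24974902, plus strand): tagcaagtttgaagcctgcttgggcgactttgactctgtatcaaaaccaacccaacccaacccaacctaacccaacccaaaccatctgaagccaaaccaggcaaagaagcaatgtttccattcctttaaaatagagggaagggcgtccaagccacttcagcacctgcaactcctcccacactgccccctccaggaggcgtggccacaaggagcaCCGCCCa
Trappc12 (chr12:28750486-28750650, minus strand): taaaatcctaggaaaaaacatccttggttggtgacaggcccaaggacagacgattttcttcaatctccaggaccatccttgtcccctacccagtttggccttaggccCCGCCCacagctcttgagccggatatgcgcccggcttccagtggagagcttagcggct
Over the whole windows and both strands, CCAAT was found in 2 of the 7 genes, Greb1 and Grhl1, against 37.4% of 32851 RefSeq windows. GGGCGG was found in 4 of 7, Atp6v1c2, Grhl1, Kidins220 and Trappc12, against 35.7%. The E-box CACGTG was found in Kidins220, against 7.15%. The E2F letters TTTGGCGC and TTTCGCGC were in none of the 7 windows and in 0.514% and 0.323% of all. None of the letters searched was in the windows of all 4 genes that were higher, and the GC box occurred in genes that were higher and in genes that were lower. GC content ranged from 53.0% in Kcnf1 to 75.3% in Grhl1, against a median of 52.7%.

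Footprints of 4 genes were lower in both single knockouts than in WT: Adi1, Atp6v1c2, Greb1 and Trappc12. The other 4, E2f6, Grhl1, Kcnf1 and Kidins220, were higher. Adi1 footprints were at 46.8 and 56.8 CPM in WT, 27.2 and 24.7 in the Fmr1 KO, 33.7 and 27.5 in the Cpeb1 KO and 42.6 and 40.4 in the double KO. All 4 single knockout libraries lay below both WT libraries, and the double KO lay between them. Its log2 change was -0.999 ± 0.122 (SE) in the Fmr1 KO (0.5-fold), -0.76 ± 0.12 in the Cpeb1 KO (0.59-fold) and -0.32 ± 0.12 in the double KO (0.801-fold). Trappc12, the gene next to it, had 232 and 236 CPM in WT, 181 and 213 in the Fmr1 KO, 198 and 202 in the Cpeb1 KO and 220 and 218 in the double KO. The means stood in the order of Adi1 on a smaller scale, with log2 changes of -0.25 ± 0.08, -0.23 ± 0.08 and -0.10 ± 0.08. The libraries of the Fmr1 KO and the Cpeb1 KO overlapped for Trappc12, with a log2 difference of -0.025 ± 0.078, so these 2 were not set apart.

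**Figure D1:**
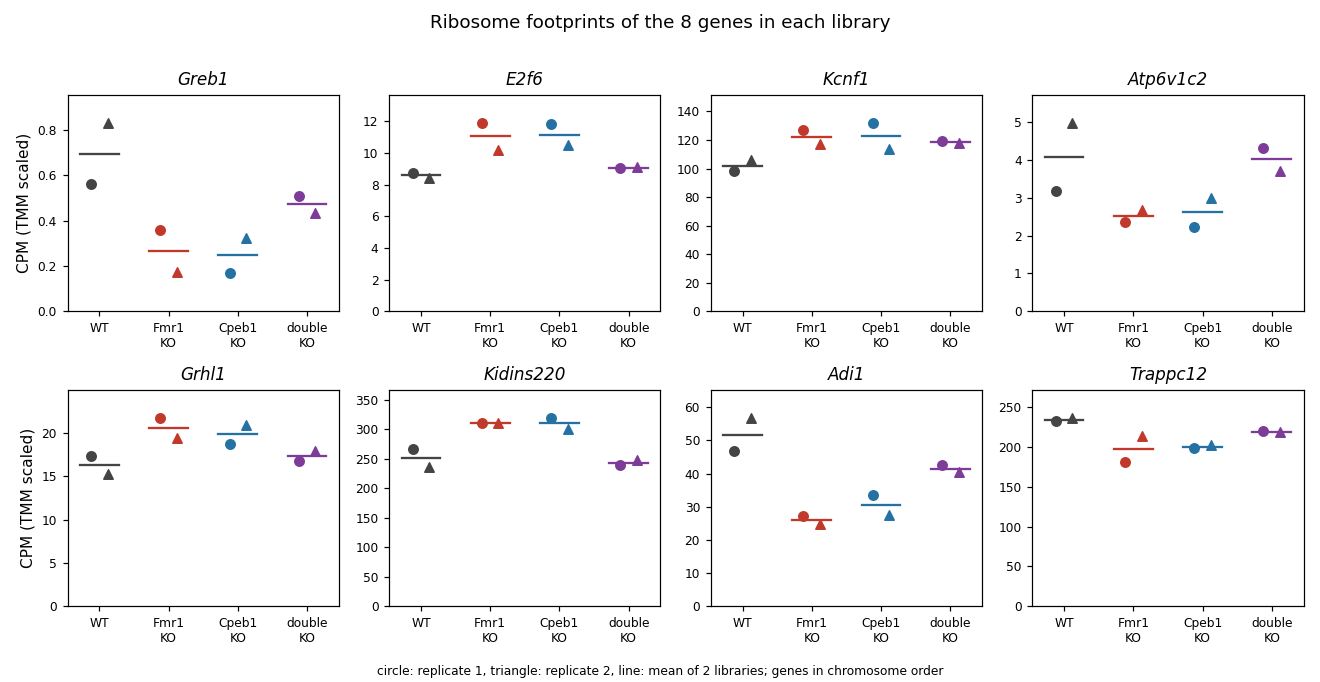
Ribosome footprints in CPM (vertical axes, linear from 0) of the 8 genes in each of the 8 libraries, by genotype, with circles for replicate 1, triangles for replicate 2 and a line at the mean of the 2. Adi1, Atp6v1c2, Greb1 and Trappc12 are lower in both single knockouts than in WT, the other 4 are higher, and the mean of the double KO lies nearer to WT than to either single knockout for all but Kcnf1 and Greb1.

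Atp6v1c2 footprints were 3.19 and 4.98 CPM in WT, 2.35 and 2.67 in the Fmr1 KO, 2.24 and 2.99 in the Cpeb1 KO and 4.31 and 3.72 in the double KO. The double KO libraries fell inside the WT range, and its log2 changes were -0.69 ± 0.24, -0.63 ± 0.24 and 0.02 ± 0.23. Greb1 was close to the lower limit of detection, with 14 and 18 counts in WT, 7 and 4 in the Fmr1 KO, 4 and 8 in the Cpeb1 KO and 11 and 7 in the double KO. Its log2 changes of -1.38 ± 0.53 and -1.46 ± 0.52 were the farthest from 0 among the 8 and had the widest errors.

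Among the higher genes, Kidins220 had 266 and 236 CPM in WT, 311 and 311 in the Fmr1 KO, 319 and 301 in the Cpeb1 KO and 239 and 248 in the double KO. Every single knockout library was above both WT libraries, while both double KO libraries lay within the WT range. The log2 changes were 0.31 ± 0.07, 0.31 ± 0.07 and -0.04 ± 0.07. E2f6 had 8.75 and 8.43 CPM in WT, 11.9 and 10.2 in the Fmr1 KO, 11.8 and 10.5 in the Cpeb1 KO and 9.03 and 9.12 in the double KO. Its single knockout libraries were all above the double KO, which was itself just above WT, and the log2 changes were 0.36 ± 0.13, 0.38 ± 0.13 and 0.08 ± 0.14.

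Grhl1 footprints were 17.3 and 15.2 CPM in WT, 21.7 and 19.4 in the Fmr1 KO, 18.7 and 20.9 in the Cpeb1 KO and 16.7 and 17.9 in the double KO. WT and double KO overlapped, and the log2 changes were 0.34 ± 0.12, 0.29 ± 0.12 and 0.09 ± 0.12. Kcnf1 had 98 and 106 CPM in WT, 127 and 117 in the Fmr1 KO, 132 and 114 in the Cpeb1 KO and 119 and 118 in the double KO. It was the 1 gene of the 8 whose double KO overlapped both single knockouts, with log2 changes of 0.26 ± 0.09, 0.27 ± 0.09 and 0.22 ± 0.09.

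Over all genes tested, 0.0581% passed an adjusted p of 0.05 in footprints of the Fmr1 KO, 0.0799% in the Cpeb1 KO and 2.65% in the double KO (edgeR quasi-likelihood test, Benjamini-Hochberg over 13774 genes). Among the 8, Adi1 passed in both single knockouts, with adjusted p-values of 0.00716 and 0.0361, and none passed in the double KO, where Adi1 had 0.153, or 0.00955 without replicate 1 of WT. At an unadjusted p under 0.05 the rule fixed 8 of 8 in the single knockouts, against 5.09% and 3.88% of all genes, and 2 of the 8, Adi1 and Kcnf1, did so in the double KO, against 21%. Since the rule used the single knockout contrasts, nothing is read from these counts. The calls and adjusted p-values of the 8 there are a description too. The Adi1 call rested on few libraries: without replicate 2 of the Fmr1 KO its adjusted p was 0.133, without replicate 1 or 2 of the Cpeb1 KO it was 0.114 and 0.983, and in the Cpeb1 KO without the replicate block it was 0.0944. In the authors' deposited tables, made with DESeq2 from the same libraries, the footprint adjusted p of Adi1 was 7.11e-11 in the Fmr1 KO and 2.22e-05 in the Cpeb1 KO. There Kidins220 passed as well, at 0.0209 and 0.0472, and the other 6 did not pass or had no adjusted p. Of all genes with an adjusted p there, 0.306% passed in the Fmr1 KO and 0.138% in the Cpeb1 KO. These are the contrasts of the rule, so nothing is read from the calls of the 8.

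At the threshold of the rule, Grhl1 was the last gene inside, with unadjusted p-values of 0.0145 and 0.0311. Nrcam, a neuronal cell adhesion gene outside the 12.1 Mb, was the first gene outside, with log2 changes of 0.14 and 0.17 and p-values of 0.0589 and 0.0301. Of the genes next to Adi1 and to the ends of the stretch, Rnaseh1 had footprint changes of 0.06 ± 0.20 in the Fmr1 KO and 0.14 ± 0.20 in the Cpeb1 KO. Ntsr2, before Greb1, had -0.23 ± 0.10 and -0.15 ± 0.10, and Myt1l, after Trappc12, -0.03 ± 0.08 and -0.04 ± 0.08. The 8 genes make up the part of the 35 tested in the stretch that met the rule, against 1.12% of all genes tested in footprints, and this was fixed by how they were chosen. For the other 27, the median absolute log2 change was 0.09 in the Fmr1 KO and 0.12 in the Cpeb1 KO, against 0.09 and 0.08 over all genes. These 27 are the genes that did not meet the rule, so their medians leave out the changes that did.

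**Figure D2:**
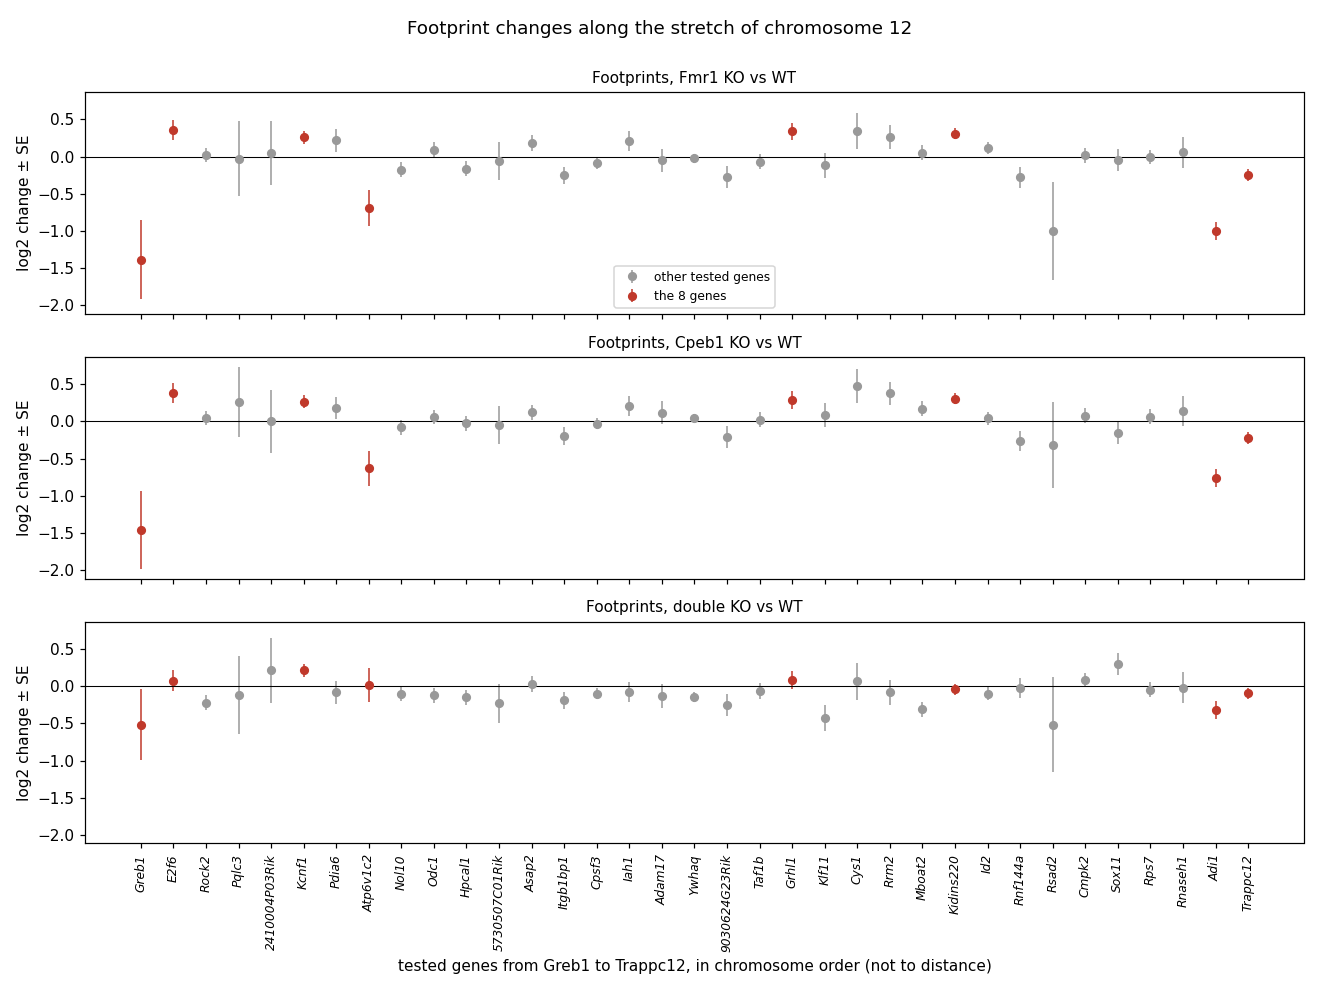
Footprint log2 change against WT ± SE (vertical axes) of the 35 tested genes from Greb1 to Trappc12 in chromosome order, evenly spaced, for the Fmr1 KO, the Cpeb1 KO and the double KO. The 8 genes (red) lie among other tested genes (grey), some of which have changes as large with wider errors, such as Rsad2 at -1.003 in the Fmr1 KO, and in the double KO most of the 8 lie nearer to 0.

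The footprints of the Fmr1 KO and the Cpeb1 KO are set against each other as a description too, since the rule asked for a change from the same WT libraries in the same direction in both, which favours a small difference between them. None of the 8 genes passed the adjusted threshold (0.0581% of all genes did), and nothing is read from that count. Adi1 differed by -0.24 ± 0.12 on the log2 scale, lower in the Fmr1 KO, and its 2 libraries lay below both Cpeb1 KO libraries, the 1 gene of the 8 without overlap (29.8% of all genes had none). The libraries of the other 7 overlapped, and their log2 differences ran from -0.06 for Atp6v1c2 to 0.07 for Greb1, with SEs of 0.07 to 0.64. For Kidins220 the difference was 0.01 ± 0.07, for Kcnf1 -0.01 ± 0.09 and for E2f6 -0.02 ± 0.13.

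The double KO was compared with the single knockouts as a description, because the choice of genes put the single knockouts away from WT. For 7 of the 8 genes both double KO libraries lay on the WT side of both libraries of the Fmr1 KO. The same 7 did so against the Cpeb1 KO, and the exception in both was Kcnf1. Of all genes, 43.2% and 52.3% had groups that did not overlap in these comparisons, but in either direction. The choice of genes favoured the WT side, so nothing is read from the count of 7. Adi1 was higher in the double KO than in the Fmr1 KO by 0.68 ± 0.12 and than in the Cpeb1 KO by 0.44 ± 0.12. Kidins220 differed by -0.35 ± 0.07 from both. Between WT and the double KO, 5 of the 8 did not overlap, a share near the 52.4% of all genes.

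RNA-seq libraries did not enter the rule. Marker sums differed there too: the choroid plexus markers summed to 65.1 to 239 CPM in WT RNA, 110 to 111 in the Fmr1 KO, 42.7 to 78.5 in the Cpeb1 KO and 17.3 to 49.2 in the double KO. The 5 astrocyte markers summed to 371 to 433 CPM in WT and 468 to 533 over the knockouts, and the 5 striatal markers to 316 to 452 CPM in WT and 183 to 269 in the Cpeb1 KO, none at 0 throughout. Their part in the RNA values and in translational efficiency was not tested. In RNA none of the 8 genes passed an adjusted p of 0.05 in any knockout, where 0.00753% of all genes passed in the Fmr1 KO, 0% in the Cpeb1 KO and 0.00753% in the double KO (edgeR quasi-likelihood test over 13287 genes). At an unadjusted p under 0.05 the count was 1 of the 8, Adi1, in each knockout, against 8.09%, 11% and 4.23% of all genes, and DESeq2 called none of the 8 either. Adi1 RNA was 12.6 and 9.56 CPM in WT, 21 and 19.8 in the Fmr1 KO, 18.8 and 12.9 in the Cpeb1 KO and 19.6 and 12.1 in the double KO. The single knockout libraries were all above WT, the reverse of the footprints, and the double KO overlapped WT. The log2 change was 0.88 ± 0.19 in the Fmr1 KO (unadjusted p = 0.000755, adjusted p = 0.526, edgeR), 0.52 ± 0.20 in the Cpeb1 KO (adjusted p = 0.405, edgeR) and 0.51 ± 0.20 in the double KO (adjusted p = 0.966, edgeR). Adi1 passed in the Fmr1 KO in 1 alternative, a fit of the 4 WT and Fmr1 KO libraries alone, where its adjusted p was 0.00653 and 401 genes passed.

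**Figure D3:**
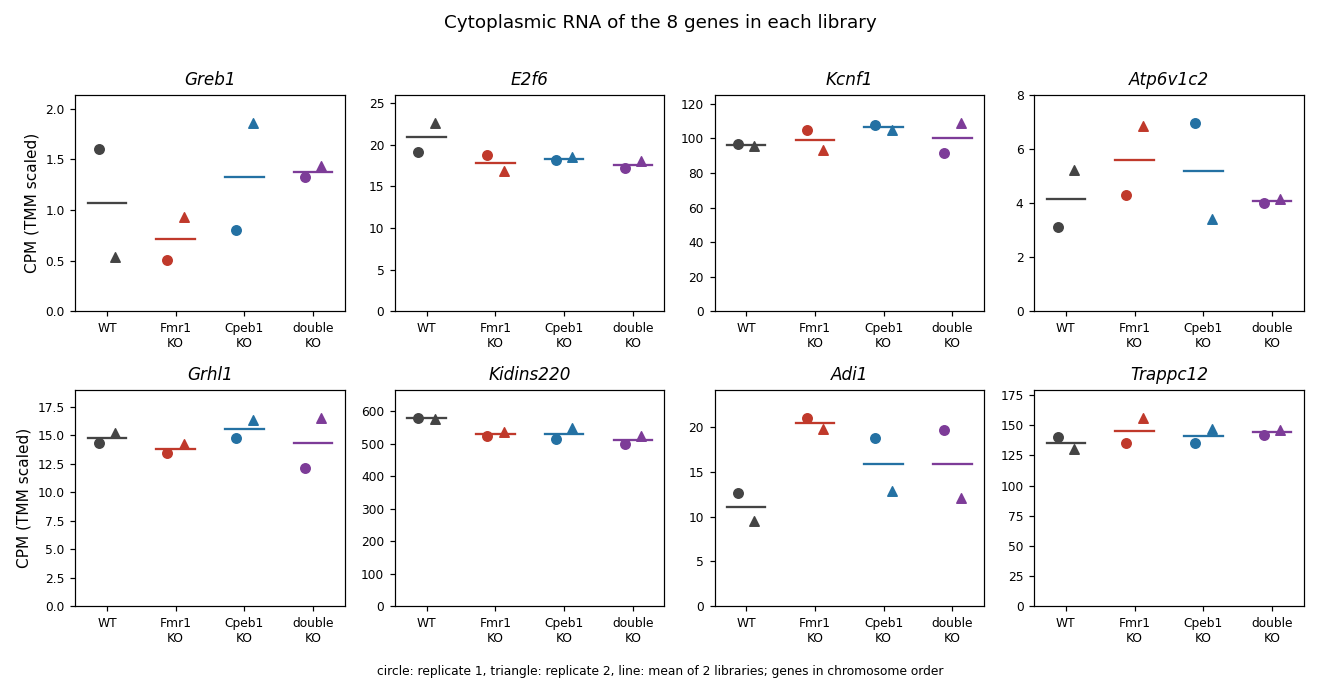
Cytoplasmic RNA in CPM (vertical axes, linear from 0) of the 8 genes in each of the 8 RNA-seq libraries, drawn as for the footprints. Adi1 is higher and E2f6 and Kidins220 are lower in all 4 single knockout libraries than in WT, and the other 5 genes overlap.

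E2f6 RNA was 19.1 and 22.6 CPM in WT, 18.8 and 16.8 in the Fmr1 KO, 18.1 and 18.5 in the Cpeb1 KO and 17.2 and 18 in the double KO. All 6 knockout libraries were below WT, by log2 changes of -0.21 ± 0.16, -0.18 ± 0.16 and -0.23 ± 0.16. Kidins220 RNA was 579 and 577 CPM in WT, 522 and 536 in the Fmr1 KO, 513 and 547 in the Cpeb1 KO and 500 and 522 in the double KO. It too was lower in all 6 knockout libraries, by -0.13 ± 0.10, -0.13 ± 0.10 and -0.18 ± 0.10. None of these differences exceeded the spread between replicates by the edgeR test, with adjusted p-values from 0.639 to 0.966. In RNA the 4 single knockout libraries alone lay on 1 side of both WT libraries for 24.2% of all genes. The share of all genes with all 6 knockout libraries on 1 side was not counted, so nothing is read from this trait.

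Trappc12 RNA ranged from 130 to 156 CPM over the 8 libraries and Kcnf1 RNA from 91.7 to 109. Grhl1 RNA ranged from 12.1 to 16.5 CPM and Atp6v1c2 RNA from 3.1 to 6.96. Greb1 RNA rested on 3 to 16 counts per library, and its log2 change in the Fmr1 KO, -0.82 ± 0.67, became 0.68 without replicate 1 of WT. The 4 single knockout libraries lay on 1 side of both WT libraries for 3 of the 8 genes in RNA, against 24.2% of all genes, and for all 8 in footprints, against 11.5%, where the rule fixed it.

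**Figure D4:**
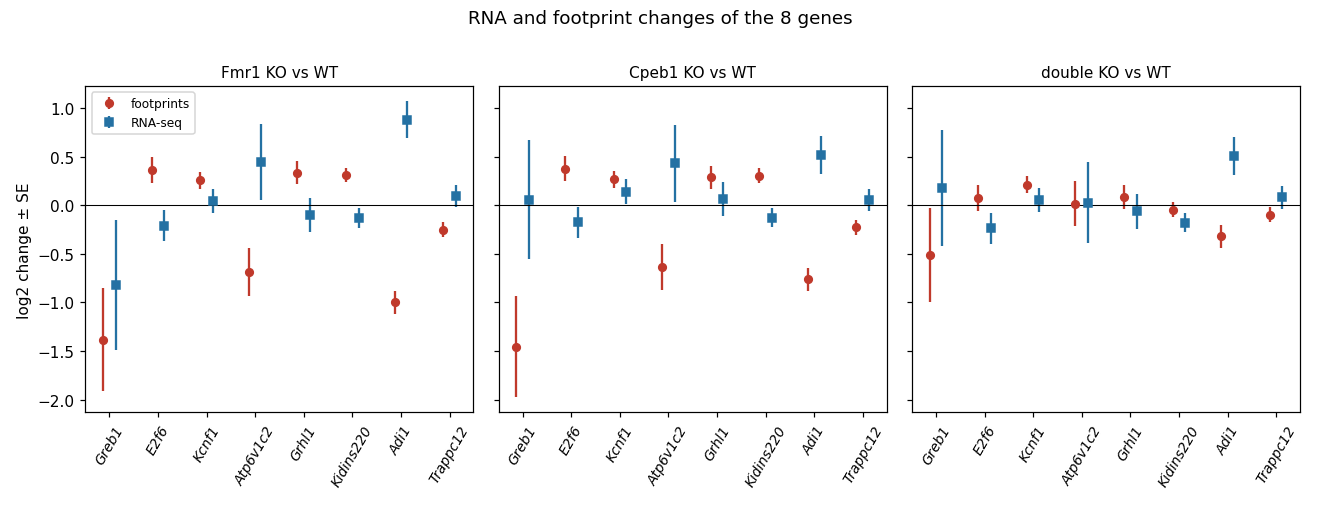
Log2 change against WT ± SE (vertical axis) of the 8 genes in footprints (red circles) and in RNA (blue squares), for each knockout. The RNA of Adi1 is above 0 in each knockout and its footprints are below 0, and the Fmr1 KO has the widest distance, 0.88 against -0.999.

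RNA and footprint changes had opposite signs for 6 of the 8 genes in the Fmr1 KO, 6 in the Cpeb1 KO and 5 in the double KO. Over all genes the shares were 48.1%, 49.3% and 33.5%. The footprint changes of the single knockouts are those of the rule. In RNA only Adi1 of the 8 had an unadjusted p under 0.05 (edgeR). The RNA signs of Greb1, Kcnf1, Atp6v1c2, Grhl1 and Trappc12 changed in at least 1 knockout when a library was left out. Nothing is therefore read from these counts of opposite signs. Translational efficiency, which contains the footprint contrast of the rule, is a description for these genes. Its log2 change for Adi1 was -1.85 ± 0.23 in the Fmr1 KO, -1.26 ± 0.24 in the Cpeb1 KO and -0.85 ± 0.24 in the double KO. For Kidins220 it was 0.47 ± 0.12, 0.46 ± 0.12 and 0.12 ± 0.12, and for E2f6 0.59 ± 0.20, 0.57 ± 0.20 and 0.29 ± 0.20. Trappc12 had -0.32 ± 0.14, -0.26 ± 0.14 and -0.20 ± 0.14. Atp6v1c2 had -1.11 ± 0.48, -1.05 ± 0.48 and -0.03 ± 0.49. Greb1, on few counts, had -0.52 ± 0.88, -1.48 ± 0.81 and -0.71 ± 0.78. For Grhl1 the values were 0.46 ± 0.20, 0.24 ± 0.20 and 0.13 ± 0.21, and for Kcnf1 0.24 ± 0.15, 0.15 ± 0.15 and 0.14 ± 0.15. In the authors' deposited Xtail tables, Adi1 had a log2 efficiency change of -1.61 (adjusted p = 4.86e-17) in the Fmr1 KO and -1.1 (adjusted p = 3.57e-06) in the Cpeb1 KO. Those tables called Kidins220 too, at 0.41 (4.58e-05) and 0.40 (0.00148), and none of the 8 in the double KO, where Adi1 had an adjusted p of 0.0772. Of the genes they list, 2.96% were called in the Fmr1 KO, 2.47% in the Cpeb1 KO and 0.152% in the double KO. They rest on the same footprint libraries as the rule, so their calls of the 8 are a description too.

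The 8 genes differed widely in level. In TPM, which scales counts for coding length and library total, the WT footprint means ± SD (n = 2) were 119 ± 16.7 for Adi1, 105 ± 1.85 for Trappc12, 73.8 ± 4.36 for Kcnf1 and 49.1 ± 4.04 for Kidins220. E2f6 followed at 12.2 ± 0.26, Grhl1 at 10.7 ± 0.67, Atp6v1c2 at 3.46 ± 1.09 and Greb1 at 0.13 ± 0.04. Adi1 and Trappc12 differed by less than the SD of Adi1, and every later pair of neighbours in this order differed by more than either SD. By RNA the order was different: Kidins220 had 156 ± 0.40 TPM, Kcnf1 94 ± 0.67 and Trappc12 83.4 ± 4.49, ahead of E2f6 at 38.6 ± 4.50 and Adi1 at 32 ± 6.22. The ratio of footprint to RNA TPM in WT was 2.95 and 4.74 for Adi1 and 1.2 and 1.33 for Trappc12. It was 0.331 and 0.296 for Kidins220 and 0.349 and 0.287 for E2f6. Kcnf1, Atp6v1c2 and Grhl1 had ratios from 0.713 to 0.862, and Greb1, on few counts, 0.25 and 1.07.

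The other genes of the pathways in which the 8 take part were examined in 9 lists of 86 genes, of which 80 were tested in footprints and 77 in RNA. None passed in RNA of any knockout or in footprints of a single knockout by edgeR. At an unadjusted p under 0.05 there were 4, 8 and 4 of the 77 in RNA of the Fmr1 KO, Cpeb1 KO and double KO, against 8.09%, 11% and 4.23% of all genes. In footprints there were 1, 3 and 16 of the 80, against 5.09%, 3.88% and 21%. The other 4 methionine salvage enzymes tested had footprint changes from -0.17 (Mtap) to -0.01 (Apip) in the Fmr1 KO. In the Cpeb1 KO they ran from -0.31 (Mri1) to -0.06 (Enoph1). All were below 0, none was near the size of Adi1, and none had an unadjusted p under 0.05 (edgeR). The RNA changes of these 4 were all above 0, from 0.108 to 0.29 in the Fmr1 KO and 0.086 to 0.405 in the Cpeb1 KO. The other 13 TRAPP subunits ranged from -0.11 to 0.17 and from -0.09 to 0.06, around a median of 0.01 and -0.02. In footprints of the double KO 2 of the 80 passed, near the 2.65% of all genes, so the count is at the background. Trappc6b, another TRAPP subunit, fell by 0.50 ± 0.09 (adjusted p = 0.0223, edgeR), and Atp6v1g2, the neuronal G subunit of the proton pump, rose by 0.35 ± 0.08 (adjusted p = 0.0353, edgeR). In the same comparison Trappc12 had -0.10 ± 0.08 and Atp6v1c2 0.02 ± 0.23.

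Outside the 8, the genes whose footprints were most like those of Adi1 in the same direction over the 8 footprint libraries lie on other chromosomes. By Pearson's r of log2 CPM, with genes under a mean count of 50 left out, they were Zfp383 (0.918, chromosome 7), Eif3i (0.907, chromosome 4), Lars (0.904, chromosome 18), Srsf11 (0.894, chromosome 3) and Rerg (0.882, chromosome 6). Their range was narrower than that of Adi1: Eif3i, a subunit of a translation initiation factor, went from 117 to 131 CPM, while Adi1 went from 24.7 to 56.8. These r values rest on 8 libraries that share genotype and depth and were the highest of many. Genes running opposite to Adi1 were not ranked. Among the 8 genes themselves, r with Adi1 ran from -0.922 for Grhl1 and -0.86 for Kidins220 to 0.827 for Greb1, which the rule favoured.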

How the data were processed

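The authors deposited, per library, RSEM gene tables of expected counts and TPM; per the submitters' processing notes the tools were cutadapt, Bowtie2, TopHat2, RSEM and DESeq2 and the build mm10, with roles and versions not given in the sources used here. Per the labels' series text, the authors' tables of log2 fold changes and adjusted p-values came from DESeq2 or Xtail. Of the genes with 1 transcript, 99.6% have a length that is a multiple of 3, so TPM is scaled to coding length. Expected counts were rounded to whole numbers. Genes were filtered (filterByExpr, minimum count 10), scaled by TMM and fitted in edgeR 4.0.16 (R 4.3.3), quasi-likelihood, over the 8 libraries of each assay, with the replicate number as a block, and p-values were adjusted over all genes. Translational efficiency is the interaction of assay and genotype over the 16 libraries. The steps were tested on simulated data. Alternatives were no block, DESeq2 1.42.0, RLE scaling, no filter, only the genotypes compared, and each library left out.

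The footprint comparison of the 2 single knockouts, planned as a test, is given as a description because it is made of the contrasts of the rule. The members and the pathway and marker lists were chosen with earlier results of these data known. Beside the 8 genes, the text names the targeted genes, pathway genes that passed, the 5 genes most like Adi1 in footprints, and the genes at the edge of the rule and beside Adi1 and the ends of the stretch. No 2 libraries of a group held identical values. Positions come from RefSeq GRCm38.p6, the assembly of mm10.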

Additional observations from a re-analysis of the deposited data

How the results depend on the processing

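With 2 libraries a group, depth limited Greb1 most, at 3 to 18 counts per library. Of 502 log2 changes of the 8 genes recomputed under the alternatives, 36 changed sign, none of them in a value that had passed. Adi1 newly passed in 2, RNA of the Fmr1 KO with only the genotypes compared and footprints of the double KO without replicate 1 of WT, and lost its call in 4. The replicate number was a block in the main fits, which treats libraries of the same number as matched. The labels tie that number to no shared source, and not every pair correlated. Deviations of libraries with the same number correlated at -0.0748 to 0.334 in footprints and -0.0446 to 0.293 in RNA, over 0.1 in 3 of 6 pairs each. Averaged over the pairs of a genotype, r was positive for every genotype in RNA, from 0.0574 to 0.18. In footprints it was positive for all but WT, at -0.0392. In RNA replicate 1 was the deeper library of every genotype, at 8365056 to 10246479 counts against 5423919 to 6528717 in replicate 2. Whether depth had a part in r was not tested. Without the replicate block, the genes passing in footprints were 5 in the Cpeb1 KO (11 with it), 73 in the double KO (365) and 2 between the single knockouts (8), and those of the 8 genes passing in the Cpeb1 KO went from 1 to 0. Genes passing in footprints of the Fmr1 KO (8) were 15 by DESeq2, 16 without a filter and 43 with only the genotypes compared. In the Cpeb1 KO they were 19 without a filter and 32 with only the genotypes compared, in the double KO 85 and between the single knockouts 141 with only those. For RNA of the Fmr1 KO (1) they were 3 without a filter and 401 with only the genotypes compared, with 1 of the 8, Adi1. For RNA of the Cpeb1 KO (0) they were 45 by DESeq2, 4 without a filter and 71 with only the genotypes compared, and for the double KO (1) 3, 2 and 24. Those of the 8 with an unadjusted p under 0.05 in footprints went from 8 to 5 in the Fmr1 KO and 4 in the Cpeb1 KO by DESeq2. The cause of these shifts was not tested.

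Leaving out 1 library at a time, genes passing ranged from 5 to 46 in footprints of the Fmr1 KO, 3 to 61 in the Cpeb1 KO, 31 to 1318 in the double KO and 2 to 6 between the single knockouts, and in RNA from 1 to 2, 0 to 151 and 1 to 5 in the Fmr1 KO, Cpeb1 KO and double KO. Those of the 8 passing in footprints ranged from 0 to 1 in each knockout, the 1 in the double KO being without replicate 1 of WT, and those with an unadjusted p under 0.05 from 4 to 6, 4 to 6 and 0 to 1. The log2 changes that reversed, none of them past the threshold, ranged in RNA of the Fmr1 KO from -1.55 to 0.68 (Greb1), -0.078 to 0.154 (Kcnf1) and -0.018 to 0.218 (Trappc12); of the Cpeb1 KO from -0.69 to 1.54 (Greb1), -0.49 to 1.05 (Atp6v1c2) and -0.057 to 0.178 (Trappc12); and of the double KO from -0.55 to 1.68 (Greb1), -0.10 to 0.20 (Kcnf1), -0.41 to 0.42 (Atp6v1c2), -0.22 to 0.10 (Grhl1) and -0.029 to 0.206 (Trappc12). In footprints between the single knockouts they were -0.66 to 0.75 (Greb1), -0.088 to 0.064 (E2f6), -0.11 to 0.10 (Kcnf1), -0.146 to 0.053 (Atp6v1c2), -0.066 to 0.173 (Grhl1), -0.023 to 0.04 (Kidins220) and -0.133 to 0.086 (Trappc12). In footprints of the double KO against WT, Atp6v1c2 (0.017) was -0.012 without the replicate block, -0.236 without replicate 1 of WT and -0.312 without replicate 1 of the double KO. There Grhl1 (0.086) was -0.016 without replicate 2 of WT, and Kidins220 (-0.043) was 0.042 and 0.04 without replicate 1 of WT and of the double KO. By DESeq2, Atp6v1c2 in the double KO was -0.001 in RNA and 0.01 in translational efficiency (-0.033).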
